A study of Danio rerio with 13 samples.

Results

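Forkhead genes encode transcription factors that share a winged-helix DNA-binding domain, and their symbols start with fox followed by a subfamily letter and a number. All genes of the zebrafish count tables whose symbol had a letter from a to s and a number in those places were taken, which gave 62 forkhead genes of 31901 genes counted, in 18 subfamilies. RNA-seq had been performed on endocrine cells sorted by flow cytometry for GFP from Tg(pax6b:GFP)ulg515 fish, so that all 4 groups carry this transgene and were gated on the promoter of pax6b itself. The groups were pax6b sa0086 homozygous pancreatic endocrine cells (PECs) and wild-type PECs, both from the dorsal pancreatic bud of embryos at 27 hours post fertilisation (3 samples each), and pax6b sa0086 homozygous enteroendocrine cells (EECs, 3 samples) and wild-type EECs (4 samples), both from the gut of larvae at 4 days post fertilisation. Each sample was a sort from about 200 pooled animals, homozygotes were picked by their absent or reduced lens among the progeny of heterozygotes, and the sa0086 allele is described as null by the study.

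Several forkhead subfamilies have well known roles in the gut and pancreas. FoxA proteins are pioneer factors that open chromatin of endodermal genes, and FoxO proteins are held out of the nucleus when insulin and PI3K-Akt signalling phosphorylates them, with FoxO1 best known in mammalian beta cells and liver. FoxJ1 switches on the genes of motile cilia, FoxM1 those of cell division, FoxF and FoxL1 act in the mesenchyme around the gut, and FoxP proteins are mostly repressors.

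The samples held between 22423938 and 61895597 reads assigned to genes, with a median of 33343637, so that 3 reads correspond to between 0.0485 and 0.134 counts per 1000000 (CPM) in a sample. Wild-type EEC replicate 4 was not among the triplicates compared in the study, and it entered the levels given here but not the tests. The methods of the study state that the mutant allele was looked for in the pax6b reads of the mutant samples to check their genotype. The level of pax6b adds no check of the labels, since its reads were not fewer in mutants: 3761, 3199 and 7529.5 CPM in mutant PECs against 5086, 3660.3 and 2509 CPM in wild-type PECs, and 1028, 1249 and 1473 CPM in mutant EECs against 557, 735, 466 and 807 CPM in wild-type EECs. The 19 matched endocrine markers summed to between 22551 and 29789 CPM in mutant PECs against 53648 and 65635 CPM in wild-type PECs, and to between 21552 and 25616 CPM in mutant EECs against 49121 and 63734 CPM in wild-type EECs. These sums were lower in mutants of either tissue, and in wild-type cells a few hormone genes made up most of them. Of 18 markers tested in mutant PECs, 4 rose and 7 fell (median log2 fold change 0.13), beside 5.43% and 5.74% of all genes. Of 19 tested in mutant EECs, 6 rose and 3 fell (median 0.08), beside 1.82% and 2.36% of all genes. In such bulk samples fewer cells of a type and less RNA per cell cannot be told apart. By in situ hybridisation the study reported beta cells lost, delta cells reduced and ghrelin cells increased in mutant pancreas, in older embryos than those sorted. The study also drew on the RNA-seq of these sorted PECs, in which many genes enriched in beta and delta cells fell and many enriched in ghrelin (epsilon) cells rose. In mutant gut it reported fewer pyyb cells and more ghrelin and motilin-like cells. It states that total endocrine cell number was not affected. The part of these shifts in the forkhead differences was not tested.

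Of the 62 forkhead genes, 23 had a mean of at least 10 CPM in at least 1 group and 14 had it in every group. Another 30 genes stayed under a mean of 1 CPM in all 4 groups. All 12 members of the FoxC, FoxE, FoxF, FoxI and FoxR subfamilies were among these low genes, with no sample above 1.25 CPM. This includes foxf1, foxf2a and foxf2b, the genes known from gut mesenchyme, and foxi3a and foxi3b, known from skin ionocytes. The only foxm1 gene, which drives mitotic transcription in mammals, did not exceed 1.40 CPM in any sample. CPM are not corrected for transcript length, so levels were compared between groups and not between genes.

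Summed over the family, forkhead reads were 2712 ± 77.5 CPM in mutant PECs, and in wild-type PECs they were 2976 ± 320.4 CPM (SD, n = 3 each), and 1975 ± 88.8 CPM in mutant EECs (n = 3) and 2123 ± 419.9 CPM in wild-type EECs (n = 4). The share of these reads that came from foxo1a lay between 29.3% and 34.4% in mutant PECs against 40.3% and 56.7% in wild-type PECs. In EECs it lay between 13.5% and 14.8% in mutants against 13.0% and 23.4% in wild type. The lowest wild-type EEC share and the wide SD of that group come from replicate 4, where foxp4 took 45.7% of the forkhead reads.

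**Figure D1:**
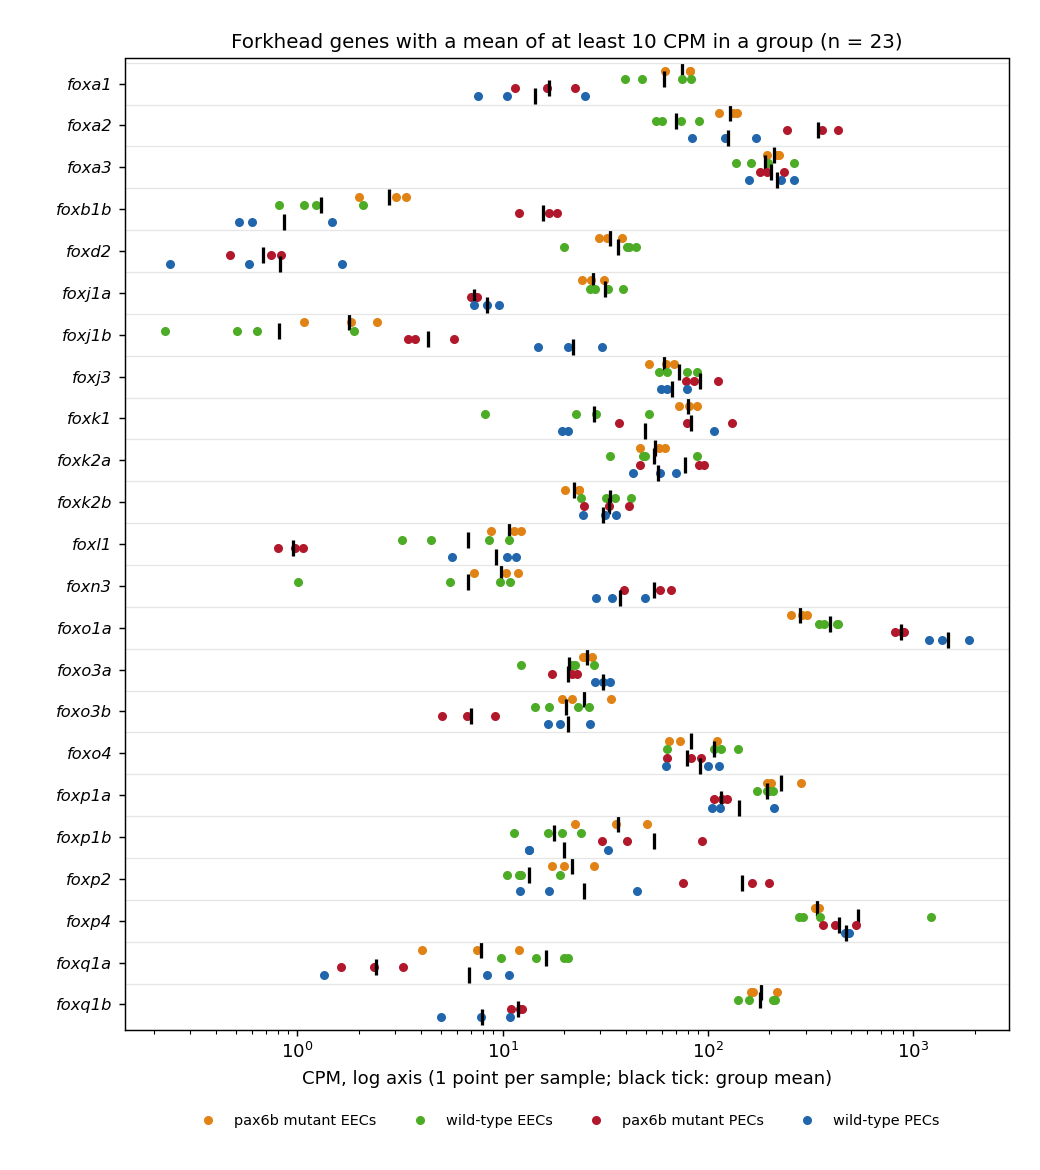
CPM of each sample on a log axis for the 23 forkhead genes with a mean of at least 10 CPM in a group, with the group mean as a black tick. Within each gene the rows run from pax6b mutant EECs (orange) and wild-type EECs (green) to pax6b mutant PECs (red) and wild-type PECs (blue), and foxo1a, foxj1b, foxb1b, foxd2 and foxq1b are among the genes whose groups stand apart.

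The first question was how forkhead levels differ between mutant and wild-type PECs. In mutant PECs foxl1, foxj1b, foxo3b and foxo1a were among the genes that fell, and foxb1b, foxp2, foxp1b and foxa2 rose. Of the 62 forkhead genes, 39 had enough reads to be tested, and 9 of them had an adjusted p under 0.1 after Benjamini-Hochberg correction of edgeR's quasi-likelihood test across the 18698 genes fitted. This is 23.1% of the forkhead genes tested, beside 11.2% of all genes tested. The 4 higher and 5 lower forkhead genes stand beside 5.43% of all genes higher and 5.74% lower. The samples of the genotypes did not overlap in CPM for 12 of the 39 genes, beside 24.6% of all genes. The remaining 30 tested genes had log2 fold changes between -1.74 and 1.14 and did not pass the test.

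Among the FoxO genes, which carry insulin signalling to the nucleus, foxo1a (ENSDARG00000099555) had 817, 907 and 890.2 CPM in mutant PECs, against 1871, 1385 and 1196 CPM in wild-type PECs. All mutant samples were below all wild-type samples. The fitted log2 fold change of foxo1a was -1.03 ± 0.29 (SE, adjusted p = 0.0478 in edgeR's quasi-likelihood test). Fold changes come from the fit, which rescales the libraries, and so differ somewhat from the ratio of the CPM. The call for foxo1a was lost without wild-type PEC replicate 1 (-0.80, adjusted p = 0.231), wild-type PEC replicate 2 (-1.01, adjusted p = 0.144), mutant PEC replicate 1 (-0.97, adjusted p = 0.208) or mutant PEC replicate 2 (-1.05, adjusted p = 0.125), and with libraries scaled by their totals alone (-0.77, adjusted p = 0.102). That call was also lost with the replicate number as a block.

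The FoxO3 copies are known in mammals for stress resistance and cell survival. The reads of foxo3b (ENSDARG00000042904) came to 5.10, 9.21 and 6.73 CPM in mutant PECs, against 19.1, 16.7 and 26.8 CPM in wild-type PECs. No mutant sample reached a wild-type sample, and the log2 fold change was -1.78 ± 0.34 (adjusted p = 0.00528 in edgeR's quasi-likelihood test). Its copy foxo3a had 21.9, 23.1 and 17.4 CPM in mutant PECs, against 33.3, 28.3 and 31.1 CPM in wild-type PECs. These samples did not overlap either, but foxo3a missed the threshold at -0.81 ± 0.28 (adjusted p = 0.105). It passed without wild-type PEC replicate 3 (-0.92, adjusted p = 0.0447), with DESeq2 (-0.80, adjusted p = 0.0843) and in edgeR's fit of all 12 samples (-0.81, adjusted p = 0.0644). The FoxO gene foxo4 had 63.2, 83.3 and 92.3 CPM in mutant PECs, against 114, 100.0 and 62.8 CPM in wild-type PECs, which overlapped (-0.49 ± 0.32, adjusted p = 0.43). Without wild-type PEC replicate 3 foxo4 passed as well (-0.78, adjusted p = 0.0623).

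Among the FoxA genes, foxa2 (ENSDARG00000003411), a pioneer factor of endoderm that also marks floor plate and notochord, had 359.8, 244 and 433 CPM in mutant PECs, against 122, 83.9 and 171 CPM in wild-type PECs. Every mutant sample lay above every wild-type sample. The log2 fold change was 1.26 ± 0.29, or 2.40-fold (adjusted p = 0.0166 in edgeR's quasi-likelihood test), and it fell just short of the threshold without wild-type PEC replicate 2 (1.1, adjusted p = 0.104). The 5 matched floor plate and notochord markers summed to between 3.95 and 11.8 CPM in mutant PECs, against 6.50 and 50.2 CPM in wild-type PECs. Of these, ctgfa had 2.66, 11.2 and 4.45 CPM in mutant PECs, against 10.1, 5.47 and 48.9 CPM in wild-type PECs. The markers noto and tbxta stayed at or under 0.164 and 0.573 CPM in mutant PECs, and at or under 0.342 and 0.599 CPM in wild-type PECs. The listed markers shha and col2a1a were not matched. The part of floor plate or notochord cells in the rise of foxa2 was not tested. The other FoxA genes were not called. In contrast to foxa2, foxa1 had 16.5, 11.5 and 22.6 CPM in mutant PECs against 10.5, 7.59 and 25.2 CPM in wild-type PECs. For foxa3, best known from liver and gut, the values were 195, 235 and 179 CPM in mutant PECs against 228, 159.7 and 264 CPM in wild-type PECs. Both overlapped between genotypes, with log2 fold changes of 0.07 ± 0.39 for foxa1 (adjusted p = 0.946) and -0.31 ± 0.25 for foxa3 (adjusted p = 0.539, edgeR).

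The FoxP genes split. The level of foxp2 (ENSDARG00000005453), known from brain and lung, was 200.0, 164 and 75.6 CPM in mutant PECs, against 16.9, 12.2 and 45.4 CPM in wild-type PECs. The genotypes did not overlap, and the log2 fold change of 2.42 ± 0.43 was a 5.35-fold rise (adjusted p = 0.00353 in edgeR's quasi-likelihood test). Its relative foxp1b (ENSDARG00000014181) had 93.5, 40.3 and 30.6 CPM in mutant PECs, against 13.5, 13.5 and 32.5 CPM in wild-type PECs. Here the lowest mutant sample lay below the highest wild-type sample, and the log2 fold change of 1.29 ± 0.41 was called at an adjusted p of 0.0791. The foxp1b call was lost without wild-type PEC replicate 1 (1.12, adjusted p = 0.256), wild-type PEC replicate 2 (1.16, adjusted p = 0.257), mutant PEC replicate 1 (0.68, adjusted p = 0.476) or mutant PEC replicate 2 (1.48, adjusted p = 0.115). It was also lost with the replicate number as a block.

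The abundant FoxP genes foxp1a and foxp4 were not called. In mutant PECs foxp1a had 124, 117 and 107 CPM, against 105, 114 and 209 CPM in wild-type PECs (-0.49 ± 0.26, adjusted p = 0.323, edgeR). In mutant PECs foxp4 had 419, 366 and 529.8 CPM, against 487, 470.5 and 467 CPM in wild-type PECs (-0.36 ± 0.26, adjusted p = 0.479). Wild-type PEC replicate 3, the most deeply sequenced library, was the highest of the 3 wild-type PEC samples for many forkhead genes. Among them were foxa1, foxa2, foxp1a, foxp1b, foxp2 and foxk1, and also foxl1, foxj1b and foxo3b, which fell in mutants. It was the lowest for others, such as foxo1a, foxo4 and foxp4. The part of that library in these genes was not tested beyond leaving it out.

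The genes with the steepest falls are known from other tissues. The mesenchymal factor foxl1 (ENSDARG00000008133) had 0.802, 1.07 and 0.976 CPM in mutant PECs, against 10.5, 5.68 and 11.6 CPM in wild-type PECs. Its log2 fold change was -3.49 ± 0.44, an 11.2-fold lower level (adjusted p = 0.000324 in edgeR's quasi-likelihood test), and the groups were far apart. The 14 matched mesenchyme and smooth muscle markers summed to between 31.0 and 110 CPM in mutant PECs, against 16.2 and 37.6 CPM in wild-type PECs. Of 11 such markers tested, 1 was higher (pdgfrb) and 0 lower, beside 5.43% and 5.74% of all genes. Their part in the fall of foxl1 was not tested.

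Of the 10 matched eye and brain markers, the forebrain gene emx2 had 0.716, 1.36 and 1.27 CPM in mutant PECs against 53.1, 201 and 239 CPM in wild-type PECs. The list summed to between 6.44 and 12.9 CPM in mutant PECs, against 82.6 and 260.3 CPM in wild-type PECs, and emx2 was the most abundant of its genes in every wild-type PEC sample. Of 5 tested in mutant PECs, 2 fell and 0 rose, beside 5.74% and 5.43% of all genes. Among the 10 matched, 2 had a mean above 10 CPM in wild-type PECs. The retinal and lens markers rx1, rx2, rx3 and cryaa stayed at or under 0.372 CPM in every PEC sample of either genotype. The 10 matched enteric neuron and neural crest markers summed to between 492 and 612 CPM in mutant PECs, against 392 and 432 CPM in wild-type PECs. Of 9 of these tested, 0 rose and 1 fell. The part of eye, brain or neural crest cells in the forkhead differences between the genotypes was not tested.

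The cilia regulator foxj1b (ENSDARG00000088290) had 3.75, 3.45 and 5.79 CPM in mutant PECs, against 14.9, 20.9 and 30.4 CPM in wild-type PECs. All mutant samples were lower, with a log2 fold change of -2.56 ± 0.36 (adjusted p = 0.000744, edgeR). The other copy, foxj1a, had 7.53, 7.32 and 7.02 CPM in mutant PECs against 9.56, 8.38 and 7.29 CPM in wild-type PECs and was not called (-0.46 ± 0.36, adjusted p = 0.513). The name of foxj1a, like that of foxk2b, was assigned as the one symbol of its group left over in the reference list.

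The neural tube factor foxb1b (ENSDARG00000053650) had the steepest rise of the family, with 16.9, 12 and 18.4 CPM in mutant PECs, against 0.521, 1.47 and 0.598 CPM in wild-type PECs. The groups were widely separated, by 15.2-fold in the fit (log2 fold change 3.93 ± 0.52, adjusted p = 0.000478, edgeR). Among the forkhead genes whose symbol is in the RefSeq annotation of assembly GRCz12tu, it is the 1 that lies on the chromosome of pax6b. The 4 foxn2 and foxl2 genes with unresolved copies were not placed on a chromosome. Mutants were chosen as homozygotes at pax6b, and the part of linked sequence was not tested. The other FoxB genes, foxb1a and foxb2, stayed at or under 0.703 CPM in all samples.

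FoxK proteins are widely expressed repressors linked to glucose metabolism. The counts of foxk1 came to 132, 79.7 and 37.1 CPM in mutant PECs, against 20.9, 19.5 and 108 CPM in wild-type PECs, and were not called (0.64 ± 0.54, adjusted p = 0.552, edgeR). Wild-type PEC replicate 3 alone overlapped with the mutants, and without it foxk1 passed (1.68, adjusted p = 0.0315). The values of foxk2a were 90.9, 95.8 and 46.8 CPM in mutant PECs against 58.6, 43.2 and 69.8 CPM in wild-type PECs. Those of foxk2b were 32.9, 41.2 and 24.9 CPM in mutant PECs against 35.9, 24.8 and 31.5 CPM in wild-type PECs. Both overlapped, as did foxj3, a widely expressed gene, with 85.9, 112 and 78.0 CPM in mutant PECs against 59, 63.1 and 79.1 CPM in wild-type PECs.

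The remaining genes with at least 10 CPM somewhere or a call elsewhere were also not called in mutant PECs. The epithelial factor foxq1a had 1.63, 3.29 and 2.35 CPM in mutant PECs, against 1.35, 10.7 and 8.42 CPM in wild-type PECs (-1.74 ± 0.63, adjusted p = 0.127, edgeR). Without wild-type PEC replicate 1, its low wild-type sample, foxq1a passed (-2.22, adjusted p = 0.0192). For foxn3, a widely expressed repressor, the values were 58.7, 39.0 and 66.4 CPM in mutant PECs against 34.2, 28.6 and 49.4 CPM in wild-type PECs (0.34 ± 0.28, adjusted p = 0.538). The epithelial gene foxq1b had 10.9, 12.2 and 12.4 CPM in mutant PECs against 7.89, 10.9 and 4.99 CPM in wild-type PECs (0.29 ± 0.40, adjusted p = 0.746), and the foxn2 gene ENSDARG00000045105 had 12.6, 8.55 and 8.79 CPM in mutant PECs against 6.07, 9.37 and 5.28 CPM in wild-type PECs (0.25 ± 0.40). The low genes foxd2, foxd5, foxn4 and the foxn2 gene ENSDARG00000055574 had means between 0.358 and 0.813 CPM in mutant PECs and between 0.311 and 1.72 CPM in wild-type PECs. Their log2 fold changes lay between -1.34 and -0.02 and none was called. In mutant PECs foxd2 had 0.830, 0.740 and 0.470 CPM and foxd5 had 0.0573, 0.329 and 0.687 CPM. In mutant PECs foxn4 had 1.29, 0.164 and 0.832 CPM and ENSDARG00000055574 had 1.09, 0.411 and 0.940 CPM.

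**Figure D2:**
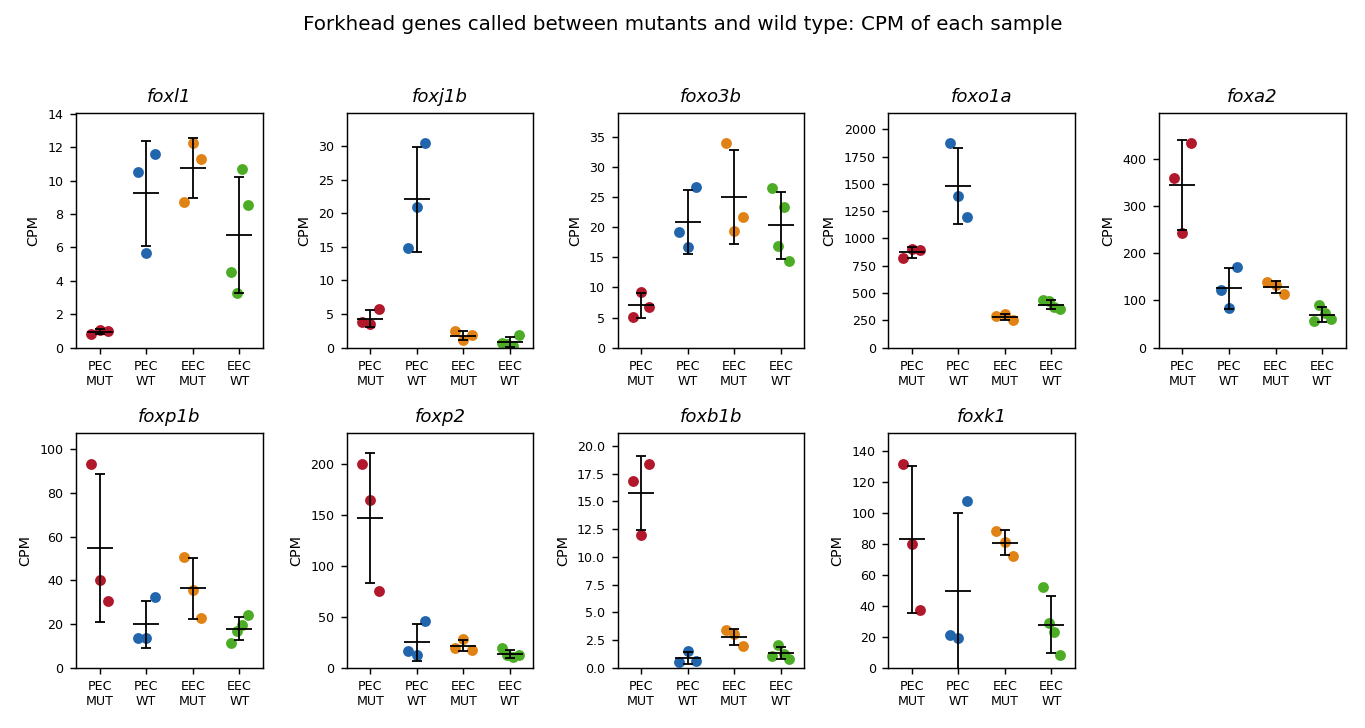
CPM of each sample for 8 forkhead genes called between mutant and wild-type PECs, ordered by fold change, and for foxk1, the 1 called between mutant and wild-type EECs. Points are samples and bars the mean ± SD (n = 3, for wild-type EECs n = 4), with bars cut at 0. The 3 mutant PEC samples of foxl1, foxj1b and foxo3b lie below all wild-type PEC samples while their EEC samples overlap between the genotypes.

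The next question was whether the same genes move in the intestine. In mutant EECs foxk1 rose, and no other forkhead gene passed the test. Of 33 forkhead genes tested this 1 is 3.03%, beside 4.18% of all 18676 genes tested. By direction the 1 higher and 0 lower genes stand beside 1.82% and 2.36% of all genes. With wild-type EEC replicates 1 to 3, the samples of the genotypes did not overlap for 7 of the 33 genes, beside 20.4% of all genes. At an unadjusted p under 0.05 there were 6 forkhead genes. No count over all genes stands beside this number, so it cannot be compared with the background and nothing is read from it. DESeq2 called 5 (foxk1, foxp1b, foxj1b and foxd7 higher, foxq1a lower) among the 1705 genes it called in all, where edgeR called 780. Of these 5, foxd7 stayed at or under 0.810 CPM in mutant EECs and 0.155 CPM in wild-type EECs. The filter before edgeR's test had removed foxd7. The counts of forkhead genes and of all genes in EECs thus both depended on the method.

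The level of foxk1 (ENSDARG00000037872) was 88.3, 81.3 and 72.2 CPM in mutant EECs, against 52.0, 28.7, 22.8 and 8.25 CPM in wild-type EECs. All mutant samples were above all wild-type samples, and the log2 fold change of 1.17 ± 0.29 was called at an adjusted p of 0.0569 in edgeR's quasi-likelihood test. That call was lost without wild-type EEC replicate 2 (1.03, adjusted p = 0.167), wild-type EEC replicate 3 (0.97, adjusted p = 0.149), mutant EEC replicate 1 (1.1, adjusted p = 0.163) or mutant EEC replicate 2 (1.14, adjusted p = 0.167), and in the fit of all 12 samples together (adjusted p = 0.308).

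In EECs foxo1a and foxa2, both called in PECs, lay on the same side without a call. In mutant EECs foxo1a had 288, 305 and 255 CPM, against 432, 426, 371 and 349 CPM in wild-type EECs. The genotypes were separate, but the log2 fold change was -0.59 ± 0.20 with an adjusted p of 0.162 (edgeR). In mutant EECs foxa2 had 139, 132 and 113 CPM, against 55.8, 90.7, 73.9 and 59.7 CPM in wild-type EECs, again without overlap (0.74 ± 0.24, adjusted p = 0.144). The effect of the mutation in EECs minus that in PECs was 0.44 ± 0.33 for foxo1a (adjusted p = 0.647) and -0.50 ± 0.37 for foxa2 (adjusted p = 0.649), so a difference between the tissues was not shown for either gene, and its absence was not shown either.

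The FoxP gene foxp1b had 50.7, 35.7 and 22.7 CPM in mutant EECs, against 11.4, 16.7, 19.4 and 24.1 CPM in wild-type EECs. It was higher in each mutant than in wild-type EEC replicates 1 to 3 but not called (1.14 ± 0.34, adjusted p = 0.117, edgeR). With 19.8, 28.0 and 17.5 CPM in mutant EECs against 19.0, 12.3, 10.5 and 12.1 CPM in wild-type EECs, foxp2 overlapped (0.60 ± 0.33, adjusted p = 0.442). The epithelial gene foxq1a had 7.52, 4.05 and 12.1 CPM in mutant EECs, against 20.0, 20.8, 14.5 and 9.80 CPM in wild-type EECs. It just missed the threshold at -1.31 ± 0.38 (adjusted p = 0.106), and its mutant samples were below wild-type EEC replicates 1 to 3 but not all below replicate 4.

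The values of foxa1, foxa3, foxo4 and foxp1a overlapped between the genotypes in EECs. For foxa1 the values were 81.9, 81.8 and 61.9 CPM in mutant EECs against 75.2, 82.5, 47.7 and 39.5 CPM in wild-type EECs. For foxa3 they were 224, 217 and 194 CPM in mutant EECs against 262, 163, 197 and 137 CPM in wild-type EECs. The FoxA genes other than foxa2 thus overlapped between genotypes, with log2 fold changes of 0.09 ± 0.25 and -0.03 ± 0.23. In mutant EECs foxo4 had 73.1, 111 and 64.7 CPM, against 141, 63.7, 116 and 107 CPM in wild-type EECs (-0.42 ± 0.32, adjusted p = 0.605, edgeR). In mutant EECs foxp1a had 204, 196 and 286 CPM, against 194, 175, 199.7 and 207 CPM in wild-type EECs (0.20 ± 0.21, adjusted p = 0.741). Neither gene separated the genotypes.

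Among the widely expressed genes, foxj3 had 51.8, 68.5 and 62.4 CPM in mutant EECs against 88.2, 63.5, 57.7 and 78.9 CPM in wild-type EECs. The values of foxk2a were 46.7, 62.2 and 57.8 CPM in mutant EECs against 88.5, 48.4, 49.6 and 33.3 CPM in wild-type EECs. Both overlapped. The other FoxK2 copy foxk2b was lower in every mutant, with 23.5, 23.6 and 20.1 CPM in mutant EECs against 35.5, 24.2, 31.8 and 42.3 CPM in wild-type EECs, but was not called (-0.51 ± 0.26, adjusted p = 0.412). For foxn3, 10.4, 11.9 and 7.22 CPM in mutant EECs stood against 5.56, 9.73, 1.00 and 10.9 CPM in wild-type EECs. Across all 32 tested genes without a call the log2 fold changes lay between -1.53 for foxd5, with 1.27, 0.630 and 1.16 CPM in mutant EECs, and 1.89 for foxj1b.

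The effect of the mutation itself differed between EECs and PECs for 5 of 43 forkhead genes tested (11.6%, beside 3.58% of all 21067 genes tested), by the interaction term of edgeR's quasi-likelihood test. The 4 positive differences (1.71% of all genes) included those of foxj1b, foxl1 and foxo3b, and the 1 negative (1.87% of all genes) was that of foxb1b, all of them called in mutant PECs. The cilia regulator foxj1b had low levels of 2.45, 1.08 and 1.83 CPM in mutant EECs, against 0.634, 0.506, 0.226 and 1.90 CPM in wild-type EECs. Its fitted change in EECs was positive but not called (1.89 ± 0.78, adjusted p = 0.282, edgeR), and wild-type EEC replicate 4 lay within the mutant values. The difference between the tissues was 4.45 ± 0.65 (adjusted p = 0.001). The mesenchymal factor foxl1 had 8.75, 12.2 and 11.3 CPM in mutant EECs, against 4.50, 3.24, 10.7 and 8.56 CPM in wild-type EECs. The genotypes overlapped in EECs, and wild-type EECs did not differ from wild-type PECs beyond the spread (-0.51 ± 0.51, adjusted p = 0.502). Without wild-type EEC replicate 3 foxl1 passed in both comparisons in edgeR. It was then higher in mutant EECs (1.44, adjusted p = 0.0963) and lower in wild-type EECs than in wild-type PECs (-1.24, adjusted p = 0.0683). The difference of the effects was 4.21 ± 0.68 (adjusted p = 0.00247).

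For foxo3b the values were 34.0, 19.4 and 21.8 CPM in mutant EECs, against 26.5, 16.9, 23.4 and 14.4 CPM in wild-type EECs. The genotypes overlapped in EECs, and the difference from PECs was 1.90 ± 0.46 (adjusted p = 0.0364). It missed the threshold without mutant PEC replicate 1 (1.72, adjusted p = 0.104) or mutant EEC replicate 1 (1.60, adjusted p = 0.132). The other FoxO3 copy foxo3a had 25.3, 24.6 and 27.3 CPM in mutant EECs and 27.9, 21.7, 22.6 and 12.2 CPM in wild-type EECs (0.03 ± 0.25, adjusted p = 0.976).

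In mutant EECs foxb1b had 3.37, 3.03 and 2.01 CPM, against 1.07, 2.08, 1.23 and 0.813 CPM in wild-type EECs, which overlapped slightly. The difference of its effects was -3.01 ± 0.73 (adjusted p = 0.0365, edgeR). The difference of -1.80 ± 0.57 for foxp2 was not called (adjusted p = 0.139), and it passed without wild-type PEC replicate 3 (-2.35, adjusted p = 0.0216) or mutant PEC replicate 3 (-2.08, adjusted p = 0.0589).

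**Figure D3:**
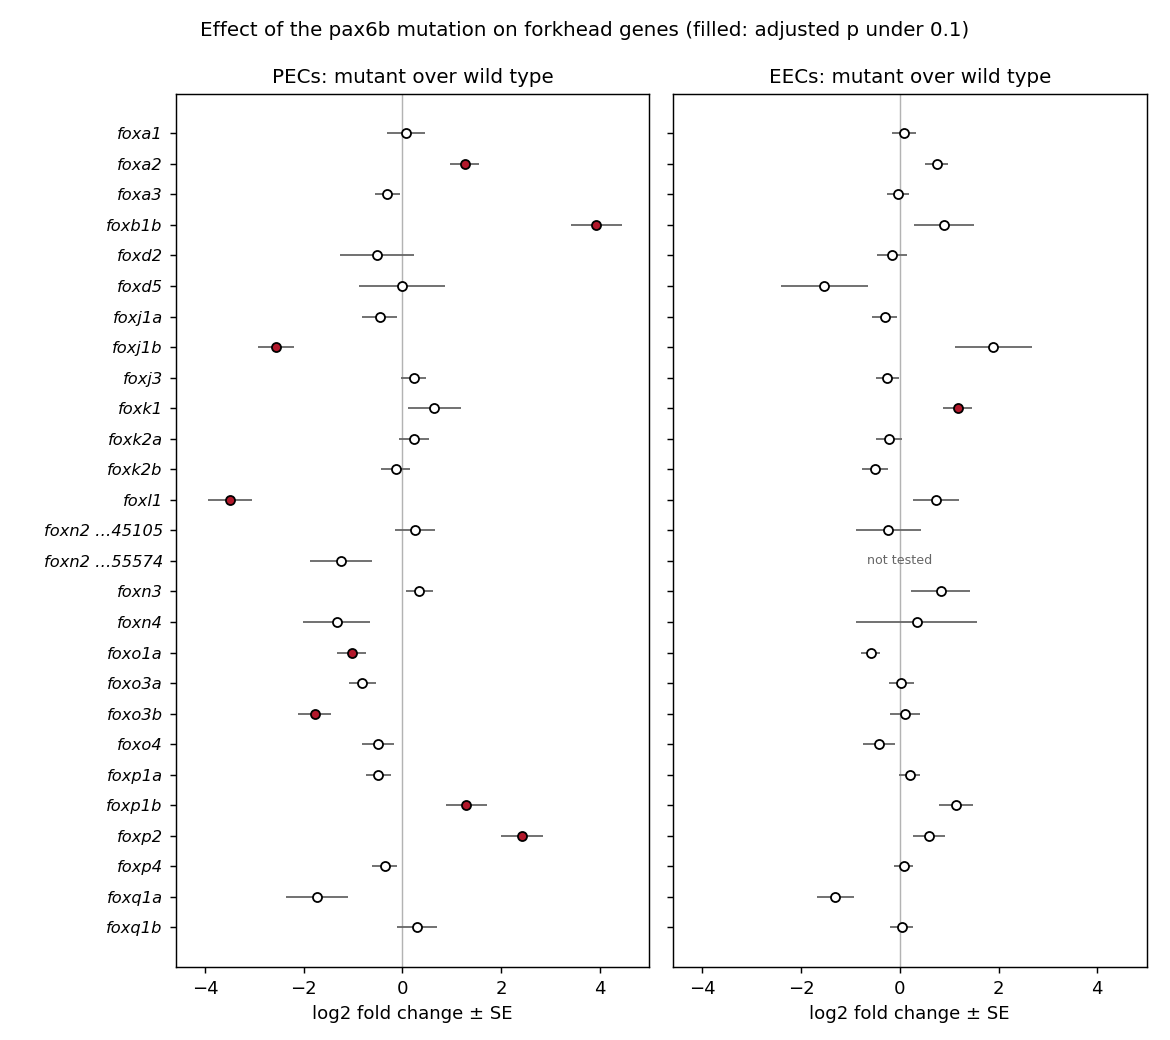
Log2 fold change ± SE of mutant over wild-type cells in PECs (left) and EECs (right) for 27 forkhead genes that were called in a comparison or reached a mean of 10 CPM. Filled points passed an adjusted p of 0.1 in edgeR's quasi-likelihood test, which 8 of those drawn did in PECs and 1 (foxk1) in EECs, and foxl1 and foxj1b have log2 fold changes of -3.49 and -2.56 in PECs.

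The last comparison asked how the forkhead genes of the wild-type tissues differ. In wild-type EECs foxd2, foxq1b, foxd5, foxa1, foxj1a and foxq1a were higher than in wild-type PECs, and foxj1b, both foxn2 genes, foxn3, foxn4, foxo1a, foxa2 and foxp4 were among the lower ones. In all 15 of 39 tested forkhead genes (38.5%) were called and stand beside 34.2% of all 19302 genes tested in edgeR's quasi-likelihood test. The 6 higher genes stand beside 18.4% of all genes and the 9 lower ones beside 15.8%. With EEC replicates 1 to 3, the samples did not overlap for 15 of the 39 genes, beside 42.6% of all genes. Tissue, age and the enzymes of dissociation go together here and cannot be told apart. The 10 matched enterocyte markers summed to between 1881 and 2499 CPM in wild-type EECs, against 20.3 and 27.5 CPM in wild-type PECs. In wild-type EECs vil1 had 815 to 1361 CPM and anpepb 461 to 832 CPM. There 6 of the 10 had a mean above 10 CPM, while apoa1a, apoa4b.1 and apobb.1 reached at most 7.89, 14.9 and 4.79 CPM. Of these 10 markers, 9 were called higher in wild-type EECs and 0 lower, beside 18.4% and 15.8% of all genes. Their part in the forkhead differences was not tested.

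Of the epithelial FoxQ1 copies, foxq1b (ENSDARG00000055395) had 212, 159, 141 and 207 CPM in wild-type EECs, against 7.89, 10.9 and 4.99 CPM in wild-type PECs. Every EEC sample was more than 10 times every PEC sample, and the log2 fold change was 4.40 ± 0.40 (adjusted p = 8.26e-06, edgeR). With 167, 217 and 163 CPM in mutant EECs and 10.9, 12.2 and 12.4 CPM in mutant PECs the gap was there in mutants as well. The other copy foxq1a was 1.45 ± 0.58 higher on the log2 scale (adjusted p = 0.0833), and this call was lost without any 1 of 5 of the 6 samples and with all 4 wild-type EEC samples (1.29, adjusted p = 0.109). Those 5 were wild-type PEC replicates 1 (0.99, adjusted p = 0.133) and 3 (1.46, adjusted p = 0.149) and wild-type EEC replicates 1 (1.39, adjusted p = 0.166), 2 (1.42, adjusted p = 0.165) and 3 (1.55, adjusted p = 0.101). With libraries scaled by their totals alone the foxq1a call was lost as well.

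The FoxD gene foxd2 (ENSDARG00000058133) had 19.8, 41.5, 44.6 and 40.4 CPM in wild-type EECs, against 1.64, 0.239 and 0.582 CPM in wild-type PECs. It was the forkhead gene with the largest fitted rise, 5.43 ± 0.65 on the log2 scale (adjusted p = 6.5e-05, edgeR), and had 29.4, 32.2 and 38.4 CPM in mutant EECs. Its relative foxd5, known from early neural tissue, was called at 3.23 ± 0.98 (adjusted p = 0.0279) with 0.520, 1.25, 6.50 and 0.426 CPM in wild-type EECs, against 0.156, 0.308 and 0.469 CPM in wild-type PECs. One library carries much of this value, and without wild-type EEC replicate 3 the log2 fold change was 1.49 (adjusted p = 0.239).

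Among the FoxA genes foxa1 (ENSDARG00000102138) had 75.2, 82.5, 47.7 and 39.5 CPM in wild-type EECs, against 10.5, 7.59 and 25.2 CPM in wild-type PECs. The tissues did not overlap, and foxa1 was 5.08-fold higher (log2 fold change 2.35 ± 0.37, adjusted p = 0.000479, edgeR). The value for foxa2, quoted above, was lower in EECs at -0.71 ± 0.27 (adjusted p = 0.0732), with overlap between the tissues. It did not pass in DESeq2 (adjusted p = 0.139), nor without wild-type PEC replicates 1 (-0.66, adjusted p = 0.197) or 3 (-0.59, adjusted p = 0.131) or wild-type EEC replicates 1 (-0.55, adjusted p = 0.256) or 3 (-0.77, adjusted p = 0.112). Nor did foxa2 pass with the replicate number as a block. Between the tissues foxa3 did not differ beyond its spread (262, 163, 197 and 137 CPM in wild-type EECs, log2 fold change -0.02 ± 0.26, adjusted p = 0.969).

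The FoxO gene foxo1a, with 432, 426, 371 and 349 CPM in wild-type EECs against 1871, 1385 and 1196 CPM in wild-type PECs, was 3.64-fold lower in EECs. No EEC sample came near a PEC sample, and the log2 fold change of -1.86 ± 0.29 was called at an adjusted p of 0.000522 (edgeR). The other FoxO genes above 10 CPM did not differ by the test: foxo3a, foxo3b and foxo4 had log2 fold changes of -0.34 ± 0.28, 0.15 ± 0.30 and 0.20 ± 0.37. Of the remaining FoxO genes, foxo1b, foxo6a and foxo6b did not exceed 1.38 CPM in any sample.

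The FoxJ1 copies ran in opposite directions between the tissues. In wild-type EECs foxj1a (ENSDARG00000101919) had 38.8, 26.6, 32.8 and 28.3 CPM, against 9.56, 8.38 and 7.29 CPM in wild-type PECs (log2 fold change 1.97 ± 0.33, adjusted p = 0.000869, edgeR). For foxj1b the values of 0.634, 0.506, 0.226 and 1.90 CPM in wild-type EECs stood against 14.9, 20.9 and 30.4 CPM in wild-type PECs (-5.51 ± 0.50, adjusted p = 7.24e-06). Both pairs of groups were apart in every sample. The mutant cells kept the gap of foxj1a, with 27.0, 31.2 and 24.4 CPM in mutant EECs.

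Of the 5 FoxN genes tested, 4 were lower in wild-type EECs than in wild-type PECs, beside 15.8% of all genes. The other, foxn1, was not called (-1.07 ± 0.94, adjusted p = 0.443, edgeR). The calls of foxn4 and of 1 foxn2 gene were lost under several alternatives, and the other foxn2 gene had few reads in EECs. The repressor foxn3 had 5.56, 9.73, 1.00 and 10.9 CPM in wild-type EECs, against 34.2, 28.6 and 49.4 CPM in wild-type PECs (-2.75 ± 0.58, adjusted p = 0.00381, edgeR). A pair of genes is listed as foxn2, and the name does not tell them apart. Of these, ENSDARG00000055574 had 0.0163, 0.357, 0.0646 and 0.194 CPM in wild-type EECs against 0.781, 1.50 and 2.88 CPM in wild-type PECs. In wild-type EECs this was 1, 12, 2 and 5 reads, partly under the limit of 3 reads, so no fold is given. In wild-type PECs it was 30, 44 and 178 reads, which kept the gene in the test. It was called lower (adjusted p = 0.0272, edgeR) and had no read in the 3 mutant EEC samples. ENSDARG00000045105 had 4.03, 2.08, 1.2 and 7.12 CPM in wild-type EECs against 6.07, 9.37 and 5.28 CPM in wild-type PECs, and was called at -1.52 ± 0.57 (adjusted p = 0.0662). In mutant EECs it had 2.89, 2.43 and 1.07 CPM. Its call between the wild-type tissues was lost with wild-type EEC replicate 4 included (-0.90, adjusted p = 0.305), and without wild-type PEC replicates 1 (-1.57, adjusted p = 0.123) or 2 (-1.11, adjusted p = 0.311) or wild-type EEC replicates 2 (-1.36, adjusted p = 0.176) or 3 (-1.22, adjusted p = 0.130).

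Low levels also lay behind foxn4, a regulator of retinal and neural progenitors. In wild-type EECs foxn4 had 0.211, 0.625, 0 and 0.620 CPM, against 1.93, 1.27 and 1.78 CPM in wild-type PECs (-2.56 ± 1.05, adjusted p = 0.0917, edgeR). Its call did not hold with wild-type EEC replicate 4 included (-2.13, adjusted p = 0.128), nor without wild-type PEC replicates 1 (-2.37, adjusted p = 0.218), 2 (-2.64, adjusted p = 0.164) or 3 (-2.65, adjusted p = 0.136) or wild-type EEC replicate 1 (-2.40, adjusted p = 0.204). Nor did it hold with libraries scaled by their totals alone. In mutant EECs foxn4 had 0.443, 0.0900 and 0.580 CPM.

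The value of foxp4 in the tissues depended on 1 library. In wild-type EECs it had 354, 291, 278 and 1229 CPM, against 487, 470.5 and 467 CPM in wild-type PECs. Replicates 1 to 3 of the EECs lay below all PEC samples, and their log2 fold change of -0.61 ± 0.25 was called at an adjusted p of 0.0874 (edgeR). With replicate 4 in the fit the direction turned (0.27, adjusted p = 0.733). The call of foxp4 was also lost without wild-type PEC replicates 1 (-0.54, adjusted p = 0.248) or 2 (-0.51, adjusted p = 0.294), or wild-type EEC replicates 1 (-0.72, adjusted p = 0.123), 2 (-0.50, adjusted p = 0.208) or 3 (-0.59, adjusted p = 0.197). It did not hold with DESeq2, without a filter on low counts or with the replicate number as a block either. Between genotypes of EECs foxp4 had 337, 348 and 333 CPM in mutants, within the range of wild-type replicates 1 to 3. Not called between the tissues was foxp1a, with 194, 175, 199.7 and 207 CPM in wild-type EECs against 105, 114 and 209 CPM in wild-type PECs (0.48 ± 0.25, adjusted p = 0.189). Without wild-type PEC replicate 3 foxp1a passed (0.68, adjusted p = 0.0473, edgeR). Also not called were foxj3, foxk1, foxk2a and foxk2b, whose log2 fold changes lay between -0.35 and 0.17.

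**Figure D4:**
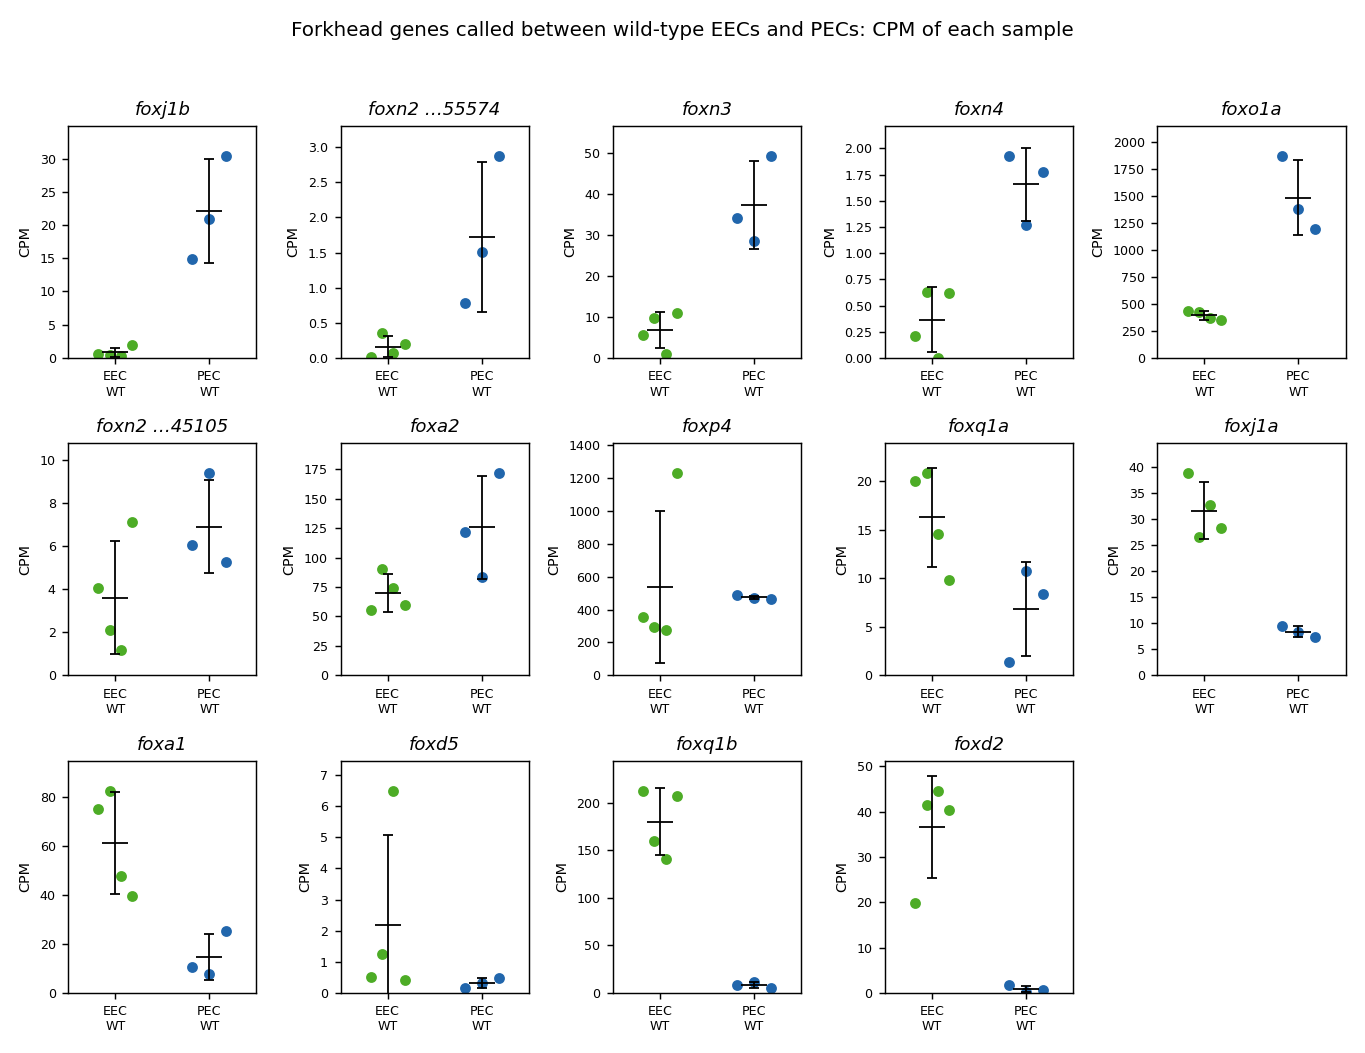
CPM of each sample for 14 forkhead genes called between wild-type EECs (green, n = 4) and wild-type PECs (blue, n = 3), ordered from the most reduced to the most increased in EECs. Points are samples and bars the mean ± SD, cut at 0. The tests used EEC replicates 1 to 3, the fourth EEC point of foxp4 is the library at 1229 CPM, and that of foxd5 at 6.50 CPM is replicate 3.

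Genes that act with the forkhead factors were counted in lists. Of 15 matched genes of insulin and PI3K-Akt signalling, which controls FoxO proteins, 14 were tested in PECs, and 1 fell in mutants (sgk1, a kinase that phosphorylates FoxO3 in mammals, log2 fold change -1.53 ± 0.52, adjusted p = 0.0996, edgeR), where 5.74% of all genes fell. The list's median was -0.19, beside 0.02 for all genes tested. None of 15 passed in mutant EECs, beside 4.18% of all genes. Between wild-type EECs and PECs 2 were higher and 3 lower of 14, beside 18.4% and 15.8% of all genes, led by pik3cb at 3.68 ± 0.37, a catalytic subunit of PI3K.

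Of 19 matched genes known as FoxO targets in mammals, 2 rose and 4 fell of 16 tested in mutant PECs, beside 5.43% and 5.74% of all genes, with a median of -0.47. The DNA damage response gene gadd45ab had the largest change at -2.41 ± 0.27 (adjusted p = 0.000125, edgeR), with 15.5, 15.5 and 14.8 CPM in mutant PECs against 56.9, 72.6 and 77.6 CPM in wild-type PECs. It was followed by pck2 at -1.96 ± 0.57 and the ubiquitin ligase gene fbxo32 at 1.73 ± 0.46. In mutant EECs, where 1.82% of all genes rose and 2.36% fell, 2 rose and 1 fell of 17: g6pca.2, a catalytic subunit of glucose-6-phosphatase, at 4.48 ± 0.47 (adjusted p = 0.00118), sesn1 at 1.63 ± 0.44 and sesn3 at -0.88 ± 0.22. For g6pca.2 this was 839, 559.6 and 213 CPM in mutant EECs against 19.6, 24.1, 25.8 and 9.76 CPM in wild-type EECs. Between the wild-type tissues 9 of 17 were higher in EECs and 1 lower, beside 18.4% and 15.8% of all genes, while foxo1a itself was lower. The members thus moved in both directions in mutants of either tissue. The 10 matched enterocyte markers summed to between 1092 and 2137 CPM in mutant EECs, where 0 of 10 rose and 1 fell. Mutant EEC replicate 1, the highest sample for g6pca.2, had 109, 90.5 and 117 CPM of the markers apoa1a, apoa4b.1 and apobb.1. In the other mutant EEC samples these reached at most 11.7, 6.96 and 4.91 CPM. The part of enterocytes in the rise of g6pca.2 was not tested.

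Of 16 matched endoderm regulators, which FoxA factors work with, 2 rose and 6 fell of 12 tested in mutant PECs, beside 5.43% and 5.74% of all genes (median -1.17, beside 0.02 for all genes). The steepest were pdx1, the pancreatic master regulator, at -5.44 ± 0.37 (adjusted p = 2e-06, edgeR), and gata6 at 3.36 ± 0.47, with sox17 called among the risen ones. Levels of sox17 were 0.744, 0.370 and 0.976 CPM in mutant PECs, against 0, 0.0342 and 0 CPM in wild-type PECs, which is under 3 reads a sample, so no fold is given. The list also holds genes that the study uses as subtype factors, pdx1 for beta cells and cdx4 and hhex for delta cells. The part of beta and delta cells in the falls of this list was not tested. In mutant EECs 1 of 14 fell, beside 2.36% of all genes: pdx1 at -3.45 ± 0.37. Between wild-type EECs and PECs 8 were higher and 4 lower of 14, beside 18.4% and 15.8% of all genes, among them ptf1a (no read in wild-type PECs), gata4 at 6.13 ± 0.71 and hhex at -7.29 ± 0.60. The 10 matched exocrine pancreas markers summed to between 6.56 and 185 CPM in wild-type EECs, against 7.48 and 7.95 CPM in wild-type PECs. Of 5 of these tested, 2 were higher in EECs and 0 lower. The part of exocrine cells in the reads of ptf1a was not tested.

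FoxJ1 is known to control motile cilia genes. Of 21 matched genes 4 rose and 1 fell of 18 tested in mutant PECs, beside 5.43% and 5.74% of all genes, with a median of 0.34 beside 0.02 for all genes. The fall was tekt3 at -4.58 ± 0.99 (adjusted p = 0.012, edgeR), and tppp3 and tekt2 rose by 2.54 ± 0.38 and 2.53 ± 0.83. In mutant EECs 1 of 19 fell, beside 2.36% of all genes (dnah5, -1.55 ± 0.37). In wild-type EECs 8 of 19 were higher than in wild-type PECs and 0 lower, beside 18.4% and 15.8% of all genes. Of 18 matched mitotic genes, the field of FoxM1, 1 of 18 rose in mutant PECs, beside 5.43% of all genes (top2a, 1.12 ± 0.34). In mutant EECs 1 of 16 fell, beside 2.36% of all genes (mki67, -3.31 ± 0.35). That was 3.59, 2.04 and 2.72 CPM of mki67 in mutant EECs against 26.3, 20.8, 31.8 and 28.3 CPM in wild-type EECs.

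Zebrafish keep many forkhead genes as an a and a b copy. Of 13 such pairs, both copies reached a mean of 10 CPM in some group in 5 (foxj1, foxk2, foxo3, foxp1 and foxq1), 1 copy did in 2 (foxb1 and foxo1), and neither did in 6. In mutant PECs the b copy of foxj1, foxo3 and foxp1 was called and the a copy was not. Of these a copies, foxo3a was lower without overlap and just missed the threshold (-0.81 ± 0.28, adjusted p = 0.105, edgeR). Of foxo1 the a copy was called and the b copy was not (0.97 ± 0.87, adjusted p = 0.584, edgeR). Of foxb1 the b copy was called and the a copy had too few reads to be tested. The difference between copies was not tested. Another 33 forkhead genes, those neither called nor at a mean of 10 CPM in a group, stayed at or under 1.89 CPM in every sample apart from foxj2, which reached 13.3 CPM, and 19 of them had too few reads to be tested in any comparison.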

How the data were processed

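The authors trimmed the reads of Smart-seq2 libraries (Nextera-XT, which marks no strand and carries no molecular identifiers), mapped them with STAR 2.5.4b to GRCz11, as the submitters' processing notes name them, and deposited raw counts per Ensembl gene from STAR's gene counting, 1 table per sample. Reads of overlapping or antisense genes and of near-identical copies cannot be told apart in such counts. All 62 forkhead genes were kept as members. Symbols came from the study's own tables for 5261 of 31901 gene IDs, from a reference list for 24007, and were not found for 2633. Of the 62 symbols 7 rest on a synonym or on being the last one left, and 4 (the foxn2 and foxl2 genes) do not resolve copies. The members and gene lists (184 of 231 list symbols matched) were chosen with earlier results of these data known.

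CPM were computed as counts per 1000000 reads on genes. Tests were edgeR 4.0.16 quasi-likelihood F tests in R 4.3.3 (TMM factors, filterByExpr, robust), with p-values adjusted by the Benjamini-Hochberg method over all fitted genes and calls at an adjusted p under 0.1, on 3 samples per group and, for the interaction, on 12 samples. The SE printed with an edgeR log2 fold change was not estimated by the fit. It is the absolute log2 fold change divided by the square root of the F statistic, and so is approximate. Genes with few reads were removed by the filter before testing, so counts over tested genes leave out 19 to 29 of the 62. Alternatives were DESeq2 1.42.0, RLE size factors, library totals, other filters, a threshold of 0.05, a replicate block, a joint fit, all 4 wild-type EEC samples, and leaving out each sample. The tests were checked on simulated counts. Some forkhead genes enter the counts but are not reported here. Of the others, values of every sample are given for members called in any test or with a mean of at least 10 CPM in a group. From the lists, at most the 3 called genes with the largest change per comparison are named as changed, and some markers are named for their level. Gene positions are not given, as the annotation at hand is of another assembly (GRCz12tu). Precision is set by 3 or 4 samples per group, and a limit of 3 reads covers counting error only.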

Additional observations from a re-analysis of the deposited data

Results flagged for a closer look

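Among the 27 forkhead genes described with every sample, 3 had a sample in wild-type EECs (n = 4) that stood apart from the other 3 by Dixon's criterion, which chance alone meets in about 1 of 20 groups. The fourth wild-type EEC sample had 1229 CPM of foxp4, against 278 to 354 CPM in the other 3. The third had 6.50 CPM of foxd5, against 0.426 to 1.25 CPM in the others. The first had 19.8 CPM of foxd2, against 40.4 to 44.6 CPM in the others.

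The effect of the pax6b mutation differed between EECs and PECs for 5 forkhead genes by the interaction term of edgeR's quasi-likelihood test. For 4 of them the difference (effect in EECs minus effect in PECs, log2) was 4.45 for foxj1b (adjusted p = 0.001), 4.21 for foxl1 (0.00247), 1.90 for foxo3b (0.0364) and -3.01 for foxb1b (0.0365).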

How the results depend on the processing

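Of the 30 calls on single forkhead genes, 18 kept direction and call in every alternative run on them. Over all 466 alternatives of these calls 396 gave the same call, 69 lost it, and 1 reversed: foxp4 between wild-type EECs and PECs was 0.27 on the log2 scale with all 4 wild-type EEC samples. The foxo1a and foxa2 values that were not called stayed uncalled in all 70 alternatives. The count of forkhead genes called in mutant EECs, 1, was 5 with DESeq2, 2 with RLE size factors, 2 with library totals, 4 without a filter on low counts and 0 at a threshold of 0.05. Leaving out single samples gave 0 to 3 genes there, 6 to 12 in mutant PECs, 10 to 13 between the wild-type tissues and 3 to 6 for the interaction. All genes together had 780 calls in EECs, 1705 with DESeq2, 768 with RLE size factors and 780 with library totals. Shares over all genes are not given for the fit without a filter, the threshold of 0.05, the left-out samples or the replicate block. Library totals moved the median of all genes to 0.24 in PECs and -0.16 for the interaction, and the share of higher calls to 63.8% and 37.5%, against 48.6% and 47.8% with TMM factors. DESeq2 moved the median to -0.14 in EECs, 0.17 between tissues and -0.16 for the interaction. Same-numbered samples did not deviate together over all genes (correlations of -0.114 to 0.0857 over 9 pairs), and differently numbered ones gave -0.085 to 0.125. A correlation over all genes cannot show a pairing that touches few genes, so it does not settle whether the numbers pair samples. With the replicate number as a block 7 forkhead genes were called in PECs, where foxo1a and foxp1b lost their calls. With that block 1 was called in EECs, 13 between the tissues and 4 for the interaction. Genes of a few reads per sample, such as foxn4 in EECs, are limited by depth.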
